A study of Lactuca sativa with 9 samples.

Results

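Of the 38910 genes counted in each library, 4 lettuce genes described as pectate lyase or pectin lyase-like were followed here across 3 romaine genotypes: Lsat_1_v5_gn_2_115560, Lsat_1_v5_gn_5_12880, Lsat_1_v5_gn_6_22481 and Lsat_1_v5_gn_8_85760. They were chosen from their gene descriptions and from their measured difference between Okeechobee and 60184, so that 2 were lower and 2 were higher in Okeechobee. For these 4 genes that difference is therefore given below as a description only, with no test. Their tests concern ‘Manatee’, whose libraries played no role in the choice. For other pectin genes an adjusted p of that difference is given, but most of those named were picked by it, so it is a description too.

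The study asked which preharvest features of the leaf go with shelf-life in romaine lettuce (Lactuca sativa). RNA was sequenced from mature leaf tissue, the first fully expanded leaf, of the commercial cultivar ‘Okeechobee’ (LSL, long shelf-life), the commercial cultivar ‘Manatee’ (ISL, intermediate shelf-life) and the experimental breeding line 60184 (SSL, short shelf-life). Each genotype had 3 libraries, for 9 in all, from untreated plants in pots that were kept in a growth chamber (22 °C, 16 h of light a day). The labels also list Belle Glade, FL, as the location. Each shelf-life class is a single genotype, so class and genotype cannot be told apart. The labels do not say whether the 3 replicates of a genotype came from separate plants. The paper calls the replicates of 60184 and Okeechobee biological and speaks of individuals of a genotype. The p-values set a difference against the spread between these samples.

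Pectin is the gel-like polysaccharide of the primary wall and of the middle lamella that holds neighbouring plant cells together, and its main backbone is homogalacturonan. Pectate lyases cut homogalacturonan by an elimination reaction that needs calcium, and they act on stretches from which pectinesterases have removed methyl groups; polygalacturonases cut the same backbone by hydrolysis. In strawberry fruit, lowering a pectate lyase slows softening. Pectate lyases, polygalacturonases and pectinesterases share a parallel beta-helix fold, and the name pectin lyase-like superfamily refers to that fold, so a gene described only by that name need not encode a lyase.

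The transcript of Lsat_1_v5_gn_2_115560 was also assayed by RT-qPCR in the study. The 2 primers of that assay are the only sequences of the 4 genes used here, and they are shown because they define the part of the gene that a qPCR would read; each is written 5′ to 3′ and in lower case throughout, since no part of it is singled out. The qPCR values were not analysed here.
PL_3_qPCR_F: gcgtgactatgatgatggactt
PL_3_qPCR_R: gagatggatccgctccaataag
Both primers have 22 bases, of which 10 are G or C in the forward primer and 11 in the reverse primer.

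Gene counts totalled 24108451 to 30219938 per library in Okeechobee, 29927056 to 32299035 in Manatee and 30373633 to 32840811 in 60184. Levels are given as CPM, the counts of a gene per fixed number of counts in its library, scaled over the 9 libraries by the TMM method, and they compare libraries within 1 gene, not 1 gene with another, because gene lengths were not used. The lowest count of any of the 4 genes in any library was 71 reads, so all 4 passed the filter of at least 10 counts in at least 3 libraries in every comparison. Not all libraries of a genotype were equally alike: the chi-square of the counts over genes, divided by its degrees of freedom, was 102 and 112 between Manatee replicate 2 and the other Manatee libraries and 17.3 between those, and it was 64.4 and 65.7 between 60184 replicate 1 and the other 60184 libraries and 9.44 between those. In Okeechobee it was 50.2 to 94.9.

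The pair described as pectate lyases was low in Okeechobee and Manatee and high in 60184. Lsat_1_v5_gn_2_115560 is described as a pectate lyase, putative pectate lyase 21. It had 3.68, 6.97 and 10.5 CPM in the Okeechobee libraries, 6.06, 2.51 and 7.40 CPM in the Manatee libraries, and 44.1, 38.4 and 38.5 CPM in the 60184 libraries. Every 60184 library was above every library of the other genotypes, while Okeechobee and Manatee overlapped. The means were 7.06 ± 3.43 CPM in Okeechobee, 5.32 ± 2.53 CPM in Manatee and 40.3 ± 3.24 CPM in 60184 (SD, n = 3 each). The level in Okeechobee was 5.72-fold lower than in 60184, a log2 fold change of -2.52 (SE 0.34). In a whole leaf, fewer cells of a type and less RNA per cell cannot be told apart.

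Lsat_1_v5_gn_5_12880 is described as related to pectate lyase 22, probable pectate lyase 5. It had 5.80, 2.65 and 3.55 CPM in the Okeechobee libraries, 9.13, 4.91 and 3.38 CPM in the Manatee libraries, and 86.0, 26.9 and 30.2 CPM in the 60184 libraries. Again every 60184 library was above all others, and 60184 replicate 1 was 3.20 times the lowest library of its genotype. The means were 4.00 ± 1.62 CPM in Okeechobee, 5.81 ± 2.98 CPM in Manatee and 47.7 ± 33.2 CPM in 60184 (SD, n = 3 each), and the 60184 mean was 28.5 CPM without replicate 1. The level in Okeechobee was 11.9-fold lower than in 60184, a log2 fold change of -3.57 (SE 0.54), which was -3.93 to -2.84 when 1 library was left out and -2.84 without 60184 replicate 1.

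Both genes of the other pair were higher in Okeechobee than in 60184, but in Manatee they parted. Lsat_1_v5_gn_6_22481 is described only as a pectin lyase-like superfamily protein. It had 86.2, 83.6 and 67.8 CPM in the Okeechobee libraries, 52.6, 121.8 and 53.2 CPM in the Manatee libraries, and 23.4, 22.8 and 25.6 CPM in the 60184 libraries. All libraries of Okeechobee and Manatee were above those of 60184, and Manatee replicate 2 was above every library of the series. The means were 79.2 ± 9.94 CPM in Okeechobee, 75.9 ± 39.8 CPM in Manatee and 23.9 ± 1.49 CPM in 60184 (SD, n = 3 each), and the Manatee mean was 52.9 CPM without replicate 2. The log2 fold change of Okeechobee relative to 60184 was 1.73 (SE 0.14).

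Lsat_1_v5_gn_8_85760 is described as a pectate lyase superfamily protein of the Pectate_lyase_3 domain family. It had 73.7, 60.7 and 63.2 CPM in the Okeechobee libraries, 19.0, 29.3 and 22.3 CPM in the Manatee libraries, and 29.8, 25.7 and 25.5 CPM in the 60184 libraries. Here the Okeechobee libraries stood above all others, and Manatee and 60184 overlapped. The means were 65.9 ± 6.90 CPM in Okeechobee, 23.6 ± 5.24 CPM in Manatee and 27.0 ± 2.41 CPM in 60184 (SD, n = 3 each). The log2 fold change of Okeechobee relative to 60184 was 1.29 (SE 0.13). Across all tested genes of that comparison 31.5% passed an adjusted p under 0.05 (16.2% higher and 15.3% lower) and 49.9% had no overlap between the libraries, but since the genes were chosen on it, nothing is read from their own count.

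**Figure D1:**
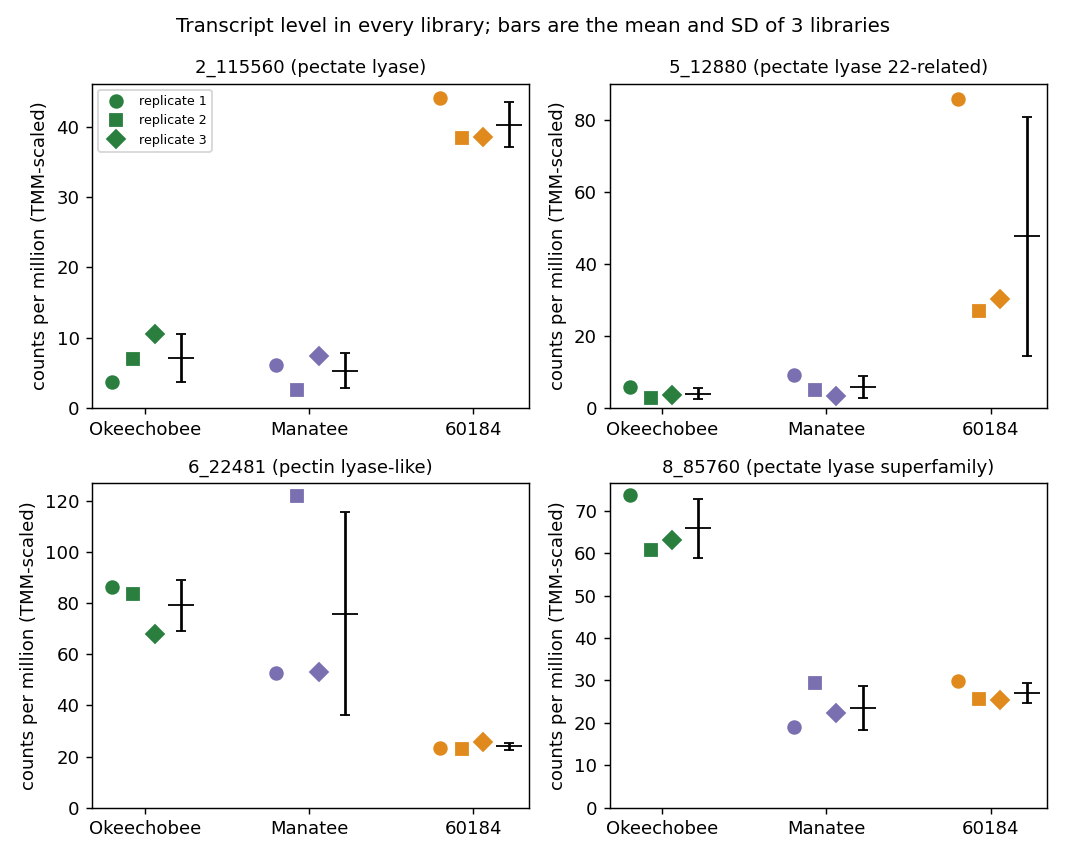
Each panel plots the CPM (TMM-scaled, linear axis from 0) of 1 gene in every library, with the genotypes Okeechobee, Manatee and 60184 from left to right, marker shapes for replicates, and a black bar for the mean ± SD of 3 libraries. The 60184 libraries of both upper genes sit above all others, Manatee replicate 2 reaches 121.8 CPM for Lsat_1_v5_gn_6_22481, and only Okeechobee is high for Lsat_1_v5_gn_8_85760.

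Manatee was compared with 60184 next. This comparison uses the same 60184 libraries as the one on which the genes were chosen, so a 60184 library that is high or low moves both the same way, and a like direction in Okeechobee and Manatee is not read as agreement. Of the 4 genes, 3 passed an adjusted p under 0.05 in edgeR’s quasi-likelihood test with Benjamini-Hochberg adjustment over 22062 genes, 1 higher and 2 lower in Manatee, where 18.9% of all tested genes passed, 10.3% higher and 8.60% lower. The libraries of Manatee and 60184 did not overlap for these 3 genes, as for 45.6% of all tested genes. Lsat_1_v5_gn_2_115560 was 7.51-fold lower in Manatee, with a log2 fold change of -2.91 (SE 0.35, edgeR adjusted p = 0.00228), and it passed without any 1 of the 6 libraries.

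Lsat_1_v5_gn_5_12880 was lower in Manatee by a log2 fold change of -3.01 (SE 0.55, edgeR adjusted p = 0.0117), which was -3.49 to -2.31 when 1 library was left out. It was -2.31 (edgeR adjusted p = 0.0307) without 60184 replicate 1 and -2.91 (edgeR adjusted p = 0.0564) without Manatee replicate 2, where the call was lost. Lsat_1_v5_gn_6_22481 was higher in Manatee, with a log2 fold change of 1.68 (SE 0.34, edgeR adjusted p = 0.0164). That call was lost without 60184 replicate 1, 2 or 3, when the edgeR adjusted p was 0.0785, 0.0743 and 0.0624, although the fold change stayed between 1.64 and 1.73. Lsat_1_v5_gn_8_85760 did not pass, with a log2 fold change of -0.18 (95% interval -0.59 to 0.22, edgeR adjusted p = 0.477).

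Okeechobee and Manatee were then compared directly, with the Okeechobee libraries shared with the comparison that chose the genes. Of the 4 genes, 1 passed, against 8.28% of the 21937 tested genes (4.54% higher and 3.74% lower in Okeechobee). This was Lsat_1_v5_gn_8_85760, which was higher in Okeechobee by a log2 fold change of 1.51 (SE 0.18, edgeR adjusted p = 0.00509), with no overlap between the libraries, as for 33.2% of all tested genes, and it passed without any 1 of the 6 libraries.

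The remaining genes did not pass between Okeechobee and Manatee, and their intervals were wide. The log2 fold change of Lsat_1_v5_gn_2_115560 was 0.43 (95% interval -0.75 to 1.61), and that of Lsat_1_v5_gn_5_12880 was -0.51 (95% interval -1.56 to 0.54). That of Lsat_1_v5_gn_6_22481 was 0.09 (95% interval -0.71 to 0.89), and its sign turned without Okeechobee replicate 1, Manatee replicate 1 or Manatee replicate 3. The intervals of both pectate lyase genes thus reached past 1 log2 unit.

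**Figure D2:**
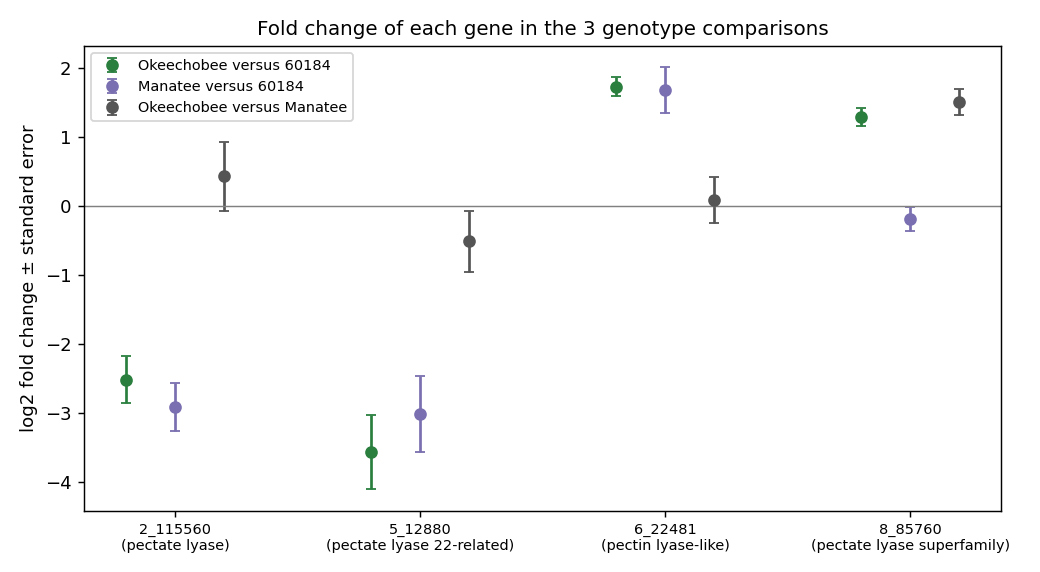
The vertical axis is the log2 fold change with its standard error from edgeR for the 4 genes along the horizontal axis, with Okeechobee versus 60184 in green, Manatee versus 60184 in purple and Okeechobee versus Manatee in grey. Green and purple points share the 60184 libraries. For Lsat_1_v5_gn_8_85760 the green, purple and grey points are at 1.29, -0.18 and 1.51.

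The contrast of Manatee with the mean of Okeechobee and 60184 was fitted over all 9 libraries. Its error is not that of the difference that chose the genes, but its size is not free of the choice. Where Manatee has the level of 1 of the other genotypes, the gap between those genotypes alone moves it. Of the 4 genes, 2 passed, both lower in Manatee, where 10.5% of 22658 tested genes passed, 6.30% higher and 4.18% lower. Lsat_1_v5_gn_8_85760 had a log2 difference of -0.84 (SE 0.15, edgeR adjusted p = 0.00749) and passed without any 1 of the 9 libraries. Lsat_1_v5_gn_2_115560 had a log2 difference of -1.66 (SE 0.39, edgeR adjusted p = 0.0267). Its call was lost without Manatee replicate 1, Manatee replicate 2 or any 1 of the 60184 replicates, with an edgeR adjusted p of 0.052 to 0.0695. Between Okeechobee and Manatee Lsat_1_v5_gn_2_115560 did not pass (edgeR adjusted p = 0.638), nor did Lsat_1_v5_gn_8_85760 between Manatee and 60184 (edgeR adjusted p = 0.477). Both calls in this contrast are thus not read as separate from the choice.

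In the same contrast Lsat_1_v5_gn_5_12880 had a log2 difference of -1.25 (SE 0.48, edgeR adjusted p = 0.129) and Lsat_1_v5_gn_6_22481 one of 0.80 (SE 0.25, edgeR adjusted p = 0.0753). With DESeq2 in place of edgeR these had an adjusted p of 0.0342 and 0.0277, so that all 4 genes passed.

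A ratio of the reads of 2 genes within 1 library does not depend on how libraries are scaled. The reads of Lsat_1_v5_gn_6_22481 over those of Lsat_1_v5_gn_8_85760 were 1.17, 1.38 and 1.07 in the Okeechobee libraries, 2.76, 4.16 and 2.38 in the Manatee libraries, and 0.785, 0.886 and 1.005 in the 60184 libraries. The Manatee libraries thus had the highest ratios of the series and the 60184 libraries the lowest, with no overlap between any pair of genotypes. Both genes were chosen on their difference between Okeechobee and 60184. The share of other gene pairs with no overlap was not computed, so the separation is a description. The log2 ratio of Okeechobee minus that of Manatee was -1.33, and that of Manatee minus that of 60184 was 1.76. Each gave p = 0.1 in a two-sided exact permutation test, the smallest that 3 against 3 libraries allow, and 0.2 after Benjamini-Hochberg adjustment over 4 such tests.

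The reads of Lsat_1_v5_gn_5_12880 over those of Lsat_1_v5_gn_2_115560, the pair lower in Okeechobee, were 1.58, 0.38 and 0.337 in the Okeechobee libraries, 1.51, 1.96 and 0.457 in the Manatee libraries, and 1.95, 0.700 and 0.783 in the 60184 libraries. These ranges overlapped for every pair of genotypes. The differences in log2 ratio were -0.91 for Okeechobee minus Manatee (exact permutation p = 0.3) and 0.11 for Manatee minus 60184 (exact permutation p = 0.9).

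**Figure D3:**
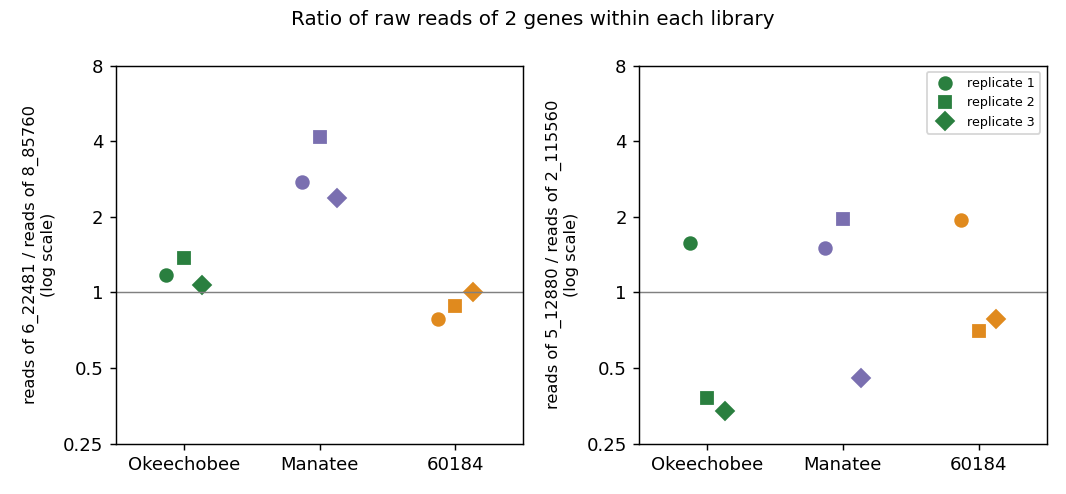
Ratios of raw reads of 2 genes within each library (log axis), with Okeechobee, Manatee and 60184 from left to right and marker shapes for replicates. On the left the Manatee libraries, at 2.38 to 4.16, sit above all others, and on the right the genotypes overlap.

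The spread between replicates differed by gene and by genotype. In 60184 the SD of log2 CPM was 0.92 for Lsat_1_v5_gn_5_12880, at the 95.9th percentile of 22658 genes, and 0.11 for Lsat_1_v5_gn_2_115560, at the 26.8th percentile, where the median gene had 0.19. Lsat_1_v5_gn_5_12880 was also above the median gene in the other genotypes, at the 79.3rd percentile in Okeechobee and the 86.8th in Manatee. Lsat_1_v5_gn_2_115560 was at the 87.8th percentile in Okeechobee and the 90th in Manatee. Lsat_1_v5_gn_6_22481 was at the 34.4th percentile in Okeechobee, the 86th in Manatee, where replicate 2 was 2.32 times the lowest library, and the 18.7th in 60184. Lsat_1_v5_gn_8_85760 stayed closer to the median or below it, at the 24.9th, 58.5th and 30.7th percentiles in Okeechobee, Manatee and 60184.

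The 4 genes did not vary as 1 group across libraries. Over the 9 libraries the Pearson correlation of log2 CPM was -0.96 between Lsat_1_v5_gn_2_115560 and Lsat_1_v5_gn_6_22481 and 0.81 between Lsat_1_v5_gn_2_115560 and Lsat_1_v5_gn_5_12880. After the mean of each genotype was removed these were -0.84 and -0.15. Lsat_1_v5_gn_6_22481 and Lsat_1_v5_gn_8_85760 had 0.49 over the 9 libraries and 0.79 after the genotype means were removed. The points of each correlation share their libraries, their genotypes and the same depth per library, and the values are a description of 9 libraries.

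By the same measure over 9 libraries, the 3 genes most like each gene were taken from 3078 other described genes with a mean of at least 100 counts. These correlations include the differences between genotypes, and values with the genotype means removed are not given for these genes. Those most like Lsat_1_v5_gn_2_115560 were an N-MYC downregulated-like gene (Lsat_1_v5_gn_3_24280, r = 0.99), a gene for a glycine-rich RNA-binding protein (Lsat_1_v5_gn_3_97861, r = 0.98) and the endoglucanase Lsat_1_v5_gn_3_10580 (r = 0.98). Endoglucanases cut beta-glucan chains such as cellulose. Lsat_1_v5_gn_3_10580 had 32.8 ± 21.1 CPM in Okeechobee, 28.9 ± 13.5 CPM in Manatee and 154.5 ± 30.9 CPM in 60184 (SD, n = 3 each).

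Those most like Lsat_1_v5_gn_5_12880 were genes described as an elongation factor EF-1 alpha (Lsat_1_v5_gn_2_109480), a leucine-rich repeat protein (Lsat_1_v5_gn_6_42341) and an abscisic acid receptor of the PYR/PYL family (Lsat_1_v5_gn_6_64620), each with r = 0.99. The receptor gene had 4.02 ± 0.66 CPM in Okeechobee, 4.73 ± 1.46 CPM in Manatee and 17.2 ± 6.37 CPM in 60184 (SD, n = 3 each). For Lsat_1_v5_gn_6_22481 they were a TIR-NBS-LRR disease resistance gene (Lsat_1_v5_gn_1_94261), the alpha subunit of the signal recognition particle receptor (Lsat_1_v5_gn_8_63581) and an EXO70 subunit of the exocyst (Lsat_1_v5_gn_1_37860), each with r of 0.99 or more. The exocyst tethers secretory vesicles to the plasma membrane. Those most like Lsat_1_v5_gn_8_85760 were a protein kinase (Lsat_1_v5_gn_1_85960, r = 0.99), a gene described as a putative endonuclease or glycosyl hydrolase (Lsat_1_v5_gn_7_86880, r = 0.98) and a UDP-glucose 4-epimerase (Lsat_1_v5_gn_3_10960, r = 0.98). The epimerase interconverts UDP-glucose and UDP-galactose, and its gene had 190.5 ± 35.2 CPM in Okeechobee, 50.3 ± 7.77 CPM in Manatee and 54.9 ± 3.91 CPM in 60184 (SD, n = 3 each).

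Lists of leaf cell type markers were summed beside these results. The 9 mesophyll markers, photosystem and Rubisco genes, were present in every library and summed to 4337 to 7123 CPM in Okeechobee, 5510 to 8054 CPM in Manatee and 12538 to 25963 CPM in 60184, with the highest sum in 60184 replicate 1, the library in which Lsat_1_v5_gn_5_12880 was highest. In edgeR 7 of these 9 markers were lower in Okeechobee and 9 of 9 in Manatee, each relative to 60184. Of all tested genes, 15.3% were lower in Okeechobee and 8.60% in Manatee, and these shares apply to every marker list here. The markers were found by descriptions that cover mostly genes the study selected on these libraries. Their counts are therefore not independent evidence of a direction. The 4 vascular markers summed to 6.06 to 20.6 CPM in Okeechobee, 4.06 to 12.0 CPM in Manatee and 41.6 to 70.3 CPM in 60184, with 0 to 2 of them at 0 reads in a library, and 2 of the 3 tested were lower in Okeechobee and 3 of 3 in Manatee, each relative to 60184. One of those tested, Lsat_1_v5_gn_8_73161, had 0 reads in every Okeechobee and Manatee library and 766 reads over the 60184 libraries. In both sums every 60184 library was above all libraries of the other genotypes, as for both pectate lyase genes, and the part of these cells in those results was not tested.

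The 3 genes listed for epidermis and guard cells were stomagen, BRANCHLESS TRICHOME and ASPG1. Stomagen acts on the epidermis but is made in the mesophyll, so their sum is not one of epidermal cells alone. The 3 genes summed to 5.60 to 15.1 CPM in Okeechobee, 7.60 to 20.9 CPM in Manatee and 30.7 to 39.8 CPM in 60184. Every 60184 library was again above the rest, and 2 of these 3 were lower in Okeechobee than in 60184. Between Manatee and 60184 the 3 markers did not pass (edgeR adjusted p = 0.0798 to 0.164). Their part in the results of the pectate lyase genes was not tested. The 3 dividing cell markers summed to 13.1 to 17.5 CPM in Okeechobee, 1.77 to 2.19 CPM in Manatee and 3.70 to 5.13 CPM in 60184, and 2 of the 3 were higher and 1 was lower in Okeechobee than in 60184. Of all tested genes, 16.2% were higher and 15.3% lower in that comparison. Only Okeechobee was high in the sum of the dividing cell list, as it was for Lsat_1_v5_gn_8_85760, but 2 of the 3 genes carried that sum. The remaining gene, Lsat_1_v5_gn_5_114560, had a mean of 1.82 CPM in Okeechobee, 1.54 CPM in Manatee and 3.64 CPM in 60184. The part of dividing cells in the result of Lsat_1_v5_gn_8_85760 was not tested. The share of uniquely mapped reads outside annotated genes was 12.0%, 6.41% and 10.8% in the Okeechobee libraries, 5.24% to 7.70% in Manatee and 6.20% to 6.99% in 60184.

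Another 32 genes described with a role in pectin were tallied in 5 lists. Descriptions were at hand mostly for genes that the study selected on these libraries, and 16 of the 32 came from tables sorted by significance, so the counts are not independent evidence of a direction. In Okeechobee 9 of the 32 were higher, 12 were lower and 11 did not pass relative to 60184 (edgeR adjusted p under 0.05). In Manatee 7 were higher, 17 were lower and 8 did not pass relative to 60184, and the count that passed fell to 12, 9 and 10 without 60184 replicate 1, 2 and 3. Among the 16 genes outside those tables, 1 was higher and 4 were lower in Okeechobee, and 3 were higher and 9 were lower in Manatee. Between Okeechobee and Manatee 5 of 31 tested genes were higher in Okeechobee and 1 was lower, and the 6 became 3, 3, 2 and 1 without Okeechobee replicate 2, Okeechobee replicate 3, Manatee replicate 1 and Manatee replicate 3. Over all tested genes the shares higher and lower were 16.2% and 15.3% for Okeechobee relative to 60184. They were 10.3% and 8.60% for Manatee relative to 60184, and 4.54% and 3.74% for Okeechobee relative to Manatee. The same shares apply to each list below.

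The list closest to the 4 genes held 9 other pectate lyase and pectin lyase-like genes. Of these, 6 were lower in Okeechobee than in 60184 and the other 3 did not pass, with a median log2 fold change of -1.55 where the median of all genes was 0.01. All 9 were lower in Manatee than in 60184, with a median of -1.65 where the median of all genes was -0.01, but the count was 6 without Manatee replicate 3 and 5, 4 and 5 without 60184 replicate 1, 2 and 3. The log2 fold changes relative to 60184 ran from -3.33 to -0.12 in Okeechobee and from -3.89 to -0.72 in Manatee, so the list held no gene with the direction of Lsat_1_v5_gn_6_22481.

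The 3 of these 9 genes with the smallest p between Okeechobee and 60184 were Lsat_1_v5_gn_9_71760, Lsat_1_v5_gn_5_70600 and Lsat_1_v5_gn_6_8401. Lsat_1_v5_gn_9_71760, a pectin lyase-like gene, had 11.2, 12.5 and 13.6 CPM in the Okeechobee libraries, 15.1, 13.1 and 12.4 CPM in the Manatee libraries and 36.1, 26.4 and 28.6 CPM in the 60184 libraries. Its log2 fold change relative to 60184 was -1.29 in Okeechobee (edgeR adjusted p = 0.00112) and -1.15 in Manatee (edgeR adjusted p = 0.00269), with every 60184 library above the rest. Lsat_1_v5_gn_5_70600 and Lsat_1_v5_gn_6_8401 are described as resembling an Arabidopsis polygalacturonase, and their log2 fold changes in Okeechobee were -2.87 and -2.77 (edgeR adjusted p = 0.00118 and 0.00267).

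One gene of this list, Lsat_1_v5_gn_8_154380, was singled out after its values were seen. It is described as related to pectate lyase 22, as is Lsat_1_v5_gn_5_12880, and it had 67.0, 113.0 and 167.4 CPM in the Okeechobee libraries, 34.4, 13.3 and 22.3 CPM in the Manatee libraries and 198.6, 149.6 and 108.3 CPM in the 60184 libraries. It was low in Manatee only, with a log2 fold change of -2.69 relative to 60184 (edgeR adjusted p = 0.00393) and of 2.34 for Okeechobee relative to Manatee (edgeR adjusted p = 0.0249). The call between Okeechobee and Manatee was lost without Okeechobee replicate 2 or 3 or Manatee replicate 1 or 3, with an edgeR adjusted p of 0.0518 to 0.113. Genes of one family can share near-identical stretches, and only uniquely mapped reads were counted, so reads that fit 2 copies equally well are missing from both.

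**Figure D4:**
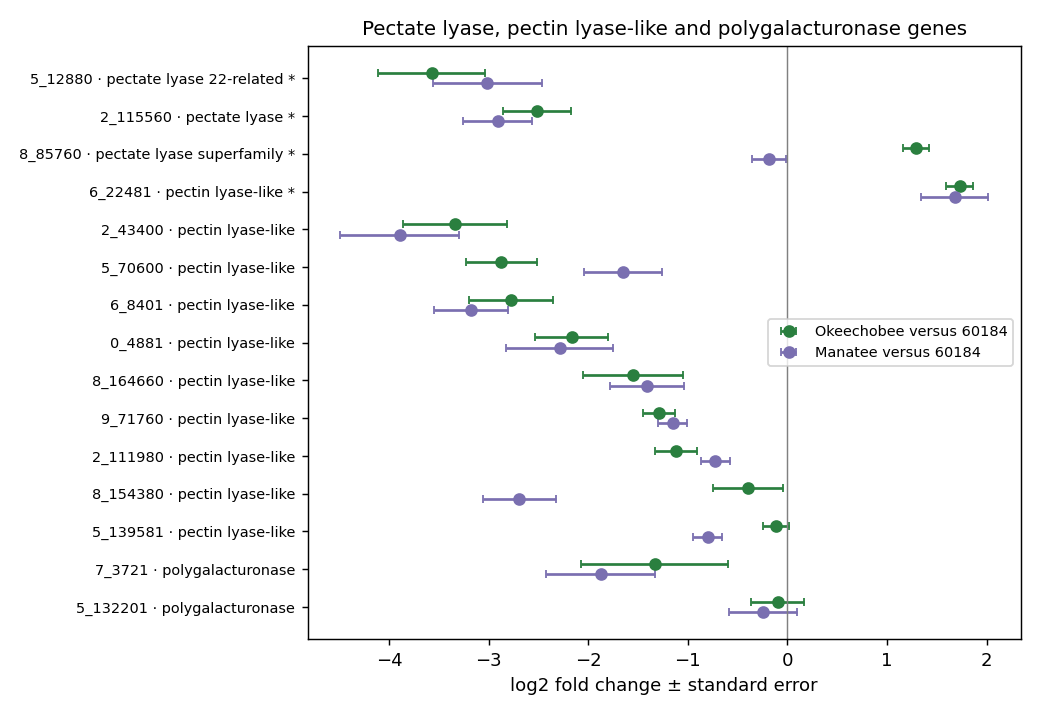
Log2 fold changes with standard errors (edgeR) of the 4 described genes, marked with an asterisk, of 9 other pectate lyase and pectin lyase-like genes and of 2 polygalacturonase genes, with Okeechobee versus 60184 in green and Manatee versus 60184 in purple. All points of the 11 other genes lie below 0, and Lsat_1_v5_gn_8_85760 and Lsat_1_v5_gn_6_22481 hold the points above 0.

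Genes of the other pectin roles were mixed in direction. Both genes of the polygalacturonase list had negative values that did not pass, with log2 fold changes in Okeechobee relative to 60184 of -1.33 for Lsat_1_v5_gn_7_3721 (edgeR adjusted p = 0.209) and -0.10 for Lsat_1_v5_gn_5_132201 (edgeR adjusted p = 0.811). Lsat_1_v5_gn_5_70600 and Lsat_1_v5_gn_6_8401, described above as resembling a polygalacturonase, were counted in the lyase-like list and passed as lower in Okeechobee. Of the 9 pectinesterase and pectinesterase inhibitor genes, 2 were higher and 4 were lower in Okeechobee, and 1 was higher and 5 were lower in Manatee, each relative to 60184. The 6 that passed in Okeechobee became 3 without Okeechobee replicate 2, 60184 replicate 2 or 60184 replicate 3, and the 6 in Manatee became 3 without any 1 of the 60184 replicates. Lsat_1_v5_gn_5_190321, a probable pectinesterase with an inhibitor domain, had 18.6, 30.5 and 27.8 CPM in the Okeechobee libraries, 1.60, 3.18 and 2.28 CPM in the Manatee libraries and 8.19, 3.39 and 3.89 CPM in the 60184 libraries. Like Lsat_1_v5_gn_8_85760 it was high in Okeechobee only, with a log2 fold change of 2.32 relative to 60184 (edgeR adjusted p = 0.00331) and of 3.47 relative to Manatee (edgeR adjusted p = 0.0018). The pectinesterase genes Lsat_1_v5_gn_4_92001 and Lsat_1_v5_gn_2_128901 were lower in Okeechobee than in 60184, with log2 fold changes of -1.25 and -1.36 (edgeR adjusted p = 0.00412 and 0.00736).

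Of the 4 pectin acetylesterase genes, whose products remove acetyl groups from pectin, 2 were higher and 1 was lower in Okeechobee, and 2 were higher and 2 were lower in Manatee, each relative to 60184, with 2 in all left in Manatee without any 1 of the 60184 replicates. Lsat_1_v5_gn_9_85740 was close to absent from both cultivars, with 4 reads over the Okeechobee libraries, 2 reads over the Manatee libraries and 1303 reads over the 60184 libraries. Lsat_1_v5_gn_6_74421 and Lsat_1_v5_gn_7_61661 were higher in Okeechobee than in 60184, with log2 fold changes of 1.53 and 0.87 (edgeR adjusted p = 0.0015 and 0.00247).

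The 8 genes of pectin synthesis, 7 of them for galacturonosyltransferases or relatives of these enzymes, which build homogalacturonan, leaned the other way from the lyase-like list in Okeechobee, where 5 were higher and 1 was lower than in 60184 with a median log2 fold change of 1.04. All 5 higher genes came from the tables sorted by significance, so this lean is not independent evidence of a direction. In Manatee 4 were higher and 1 was lower than in 60184, but all 5 of these calls were lost without 60184 replicate 2 or 3, and the count that passed was 2 without 60184 replicate 1 or Manatee replicate 3. The count for Okeechobee against 60184 was 6 whichever library was left out. Lsat_1_v5_gn_2_87760, described as galacturonosyltransferase 14, and Lsat_1_v5_gn_9_9781, described as galacturonosyltransferase 6, had log2 fold changes of 1.18 and 1.09 in Okeechobee (edgeR adjusted p = 0.000417 and 0.000501). Lsat_1_v5_gn_1_130400, described as galacturonosyltransferase 4, had 31.8, 42.2 and 38.3 CPM in the Okeechobee libraries, 98.3, 71.3 and 98.9 CPM in the Manatee libraries and 100.2, 87.7 and 88.3 CPM in the 60184 libraries. It was low in Okeechobee only, with a log2 fold change of -1.30 relative to 60184 (edgeR adjusted p = 0.000722) and of -1.23 relative to Manatee (edgeR adjusted p = 0.0108), where the call was lost without Manatee replicate 1 or 3 (edgeR adjusted p = 0.0549 and 0.0588).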

How the data were processed

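The 9 libraries were poly(A) RNA-seq of lettuce leaf. The authors mapped reads with STAR to the v5 lettuce genome. They state that HTSeq, SAMtools and their own scripts took out likely PCR duplicates and counted uniquely mapped reads. They deposited raw counts per gene without normalization. In Okeechobee replicate 1 the gene counts with the no feature and ambiguous lines come to 34918900. The paper lists the same number of uniquely mapped reads, and the other Okeechobee and 60184 libraries match too. Removal of duplicates can thus not be seen in these counts. The summary lines of each file (no feature, ambiguous, not unique) were left out of library sizes and tests. Reads outside genes made up 5.24% to 12.0% of uniquely mapped reads.

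A gene was tested if 3 or more libraries held 10 or more of its counts. The tests were made in R 4.3.3 with edgeR 4.0.16 (TMM, robust quasi-likelihood F test) on the 6 libraries of each pair of genotypes, or on all 9 for the contrast of Manatee with the mean of the others. Benjamini-Hochberg adjustment was made over every tested gene, with a threshold of 0.05, and intervals of fold changes are 95% intervals. Correlations used log2 CPM with a prior count of 2. Exact permutation tests used scipy 1.17.1, and the fits were tested on simulated data. The alternatives were DESeq2 1.42.0, other scalings and filters, 1 model of all libraries, replicate number as a block and each library left out in turn.

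The 4 genes and all gene lists were chosen with earlier results of these data known. Named genes are these 4, up to 3 genes of each pectin list with the smallest p between Okeechobee and 60184, and the 3 described genes most correlated with each of the 4. Descriptions came from the study’s tables, which cover some of the genes. The tables also hold the authors’ own fold changes and p-values, which were not used. Gene coordinates, lengths and protein sequences were not used here, because the reference table did not match the v5 identifiers, and a planned tally by RefSeq product names was not made for the same reason.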

Additional observations from a re-analysis of the deposited data

How the results depend on the processing

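The fold changes of the 4 genes between Okeechobee and 60184 kept their direction under every alternative. They were -2.90 to -2.20, -3.93 to -2.84, 1.67 to 1.85 and 1.20 to 1.36 on the log2 scale for Lsat_1_v5_gn_2_115560, Lsat_1_v5_gn_5_12880, Lsat_1_v5_gn_6_22481 and Lsat_1_v5_gn_8_85760 when 1 library was left out. That difference chose the genes, and for all 4 its libraries did not overlap. The kept direction thus followed from the choice and is not read as support. The count of these genes that passed stayed at 3 for Manatee against 60184 and at 1 for Okeechobee against Manatee under the other tools, scalings and filters, and was 2 to 3 and 1 when 1 library was left out. In the contrast of Manatee with the mean of the others it was 2, 4 with DESeq2, and 1 to 2 when 1 library was left out. The log2 fold change of Lsat_1_v5_gn_6_22481 between Okeechobee and Manatee, which did not pass, was -0.12 to 0.58 when 1 library was left out, with -0.00059 without Okeechobee replicate 1, -0.12 without Manatee replicate 1 and -0.11 without Manatee replicate 3. Of the 32 other pectin genes, 9 to 23 passed for Manatee against 60184 when 1 library was left out, against 24 with all, and 1 to 8 for Okeechobee against Manatee, against 6 with all and 10 with DESeq2. The cause of these changes was not tested, although a fit with fewer libraries has less power by construction. Over all genes 1817 passed between Okeechobee and Manatee, 3654 with DESeq2, 3129 with all 9 libraries in 1 model and 430 to 2152 when 1 library was left out. Between Manatee and 60184 it was 4176, and 1232 to 4381 when 1 library was left out. The tallies of each pectin list under each alternative were added after the data were seen. The replicate numbers do not pair the samples: deviations from the genotype means correlated at -0.30 to 0.28 between libraries with the same number, and 3 of 18 best partners shared a number. With the number as a replicate block, 3, 1 and 3 of the 4 genes passed for Manatee against 60184, Okeechobee against Manatee and Manatee against the mean of the others, where Lsat_1_v5_gn_5_12880 had an edgeR adjusted p of 0.0152, 21, 16 and 2 of the other pectin genes passed for the pairs Okeechobee and 60184, Manatee and 60184, and Okeechobee and Manatee, and 5886, 2320 and 596 of all genes did.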
